A study of Mus musculus with 6 samples.

Results

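The tumour necrosis factor (TNF) superfamily was examined in RNA of the mouse cochlear modiolus after treatment with drugs that kill hair cells. The family was taken as the protein-coding mouse genes whose symbol begins with Tnfsf (ligands) or Tnfrsf (receptors), together with Tnf, Lta and Ltb, and 34 genes were considered, 15 ligands and 19 receptors. Of the 33676 genes with any transcript in the count table, 26 belonged to the family, and 22 of these, 9 ligands and 13 receptors, had enough counts to be tested among 14118 tested genes. Another 4 members had too few counts. For 8 members no transcript was listed, so their levels are not known. The 3 control libraries came from male C57BL/6 mice, 8 weeks old when the model was set up, that received saline, and the 3 degenerated libraries from mice of the same strain, sex and age, taken on day 30 after a subcutaneous injection of 1 g/kg kanamycin sulfate and an intraperitoneal injection of 0.4 g/kg furosemide, a combination followed by degeneration of spiral ganglion neurons (SGNs). The labels name SGNs as the cell type, but the RNA came from the whole modiolus, the bony core of the cochlea, with its glia, vessels, bone and marrow. Nothing in the labels says whether a library came from 1 animal or a pool. The p-values therefore set the group difference against the variation between these libraries, which may differ from that between animals.

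Ligands of this family are mostly trimers at the surface of immune cells, released from some cells by proteolysis, and they act by clustering their receptors. Receptors with a death domain can recruit adaptors that start apoptosis or necroptosis, while receptors that bind TRAF proteins lead mainly to NF-κB and JNK signalling, and a few receptors are decoys that bind a ligand without passing on a signal. In the ear, osteoprotegerin, the decoy of the RANK ligand and RANK system, is known for holding back remodelling of the bone around the cochlea. TNF itself is known as an early cytokine after damage to the sensory epithelium.

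The libraries held 12480876 to 15549319 counts. SGN markers were abundant in every library (summed level of 10 tested genes in CPM, which are counts scaled to the size of the library, 9684 to 12390 in control and 5825 to 8607 in degenerated libraries), as were Schwann cell and satellite glia markers (5430 to 9602 and 4779 to 7553 CPM). Hair cell markers had sums that overlapped, at 338 to 631 CPM in control and 167 to 506 CPM in degenerated libraries, and Slc26a5, which encodes prestin of outer hair cells, was called lower (16.0, 9.69 and 7.78 CPM against 0.137, 0.493 and 0.316 CPM). Otof, which encodes otoferlin, was at 313, 193 and 202 CPM in control and 257, 80.2 and 143 CPM in degenerated libraries, so degenerated replicate 1 lay among the controls. Markers of blood-forming tissue separated libraries within a group. Neutrophil markers, 6 of 8 tested, summed to 97.9, 12287 and 6020 CPM in control replicates 1, 2 and 3 and to 553, 1555 and 4146 CPM in degenerated replicates 1, 2 and 3, and erythroid markers varied from 4516 to 30148 CPM among controls. Skeletal muscle markers reached 352 CPM in control replicate 3 and at most 5.16 CPM elsewhere.

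Levels of different members were compared per transcript length, as TPM, the counts of the listed transcripts divided by their lengths and scaled to the same total in each library. Tnfrsf1a (149 ± 5.87 TPM, SD, n = 3) and Tnfrsf11b (141 ± 6.33 TPM) led in control libraries, followed by Tnfrsf21 (113 ± 6.31 TPM) and Tnfrsf19 (74.7 ± 10.9 TPM). The first 2 receptors differed by about their spread, whereas the others were separated by more than it. In degenerated libraries Tnfrsf11b came first at 349 ± 101 TPM, ahead of Tnfrsf1a at 229 ± 4.74 TPM, and its share of the TPM of all members was 21% in control and 34.1% in degenerated libraries. Tnfsf12 was the most abundant ligand, with 63.0 ± 5.34 TPM in control and 51.1 ± 9.39 TPM in degenerated libraries (SD, n = 3 each), and the other ligands had control means of 0.255 to 10.7 TPM. Among listed transcripts, receptors thus outweighed ligands in both groups, while 5 of the 15 ligands had no listed transcript.

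**Figure D1:**
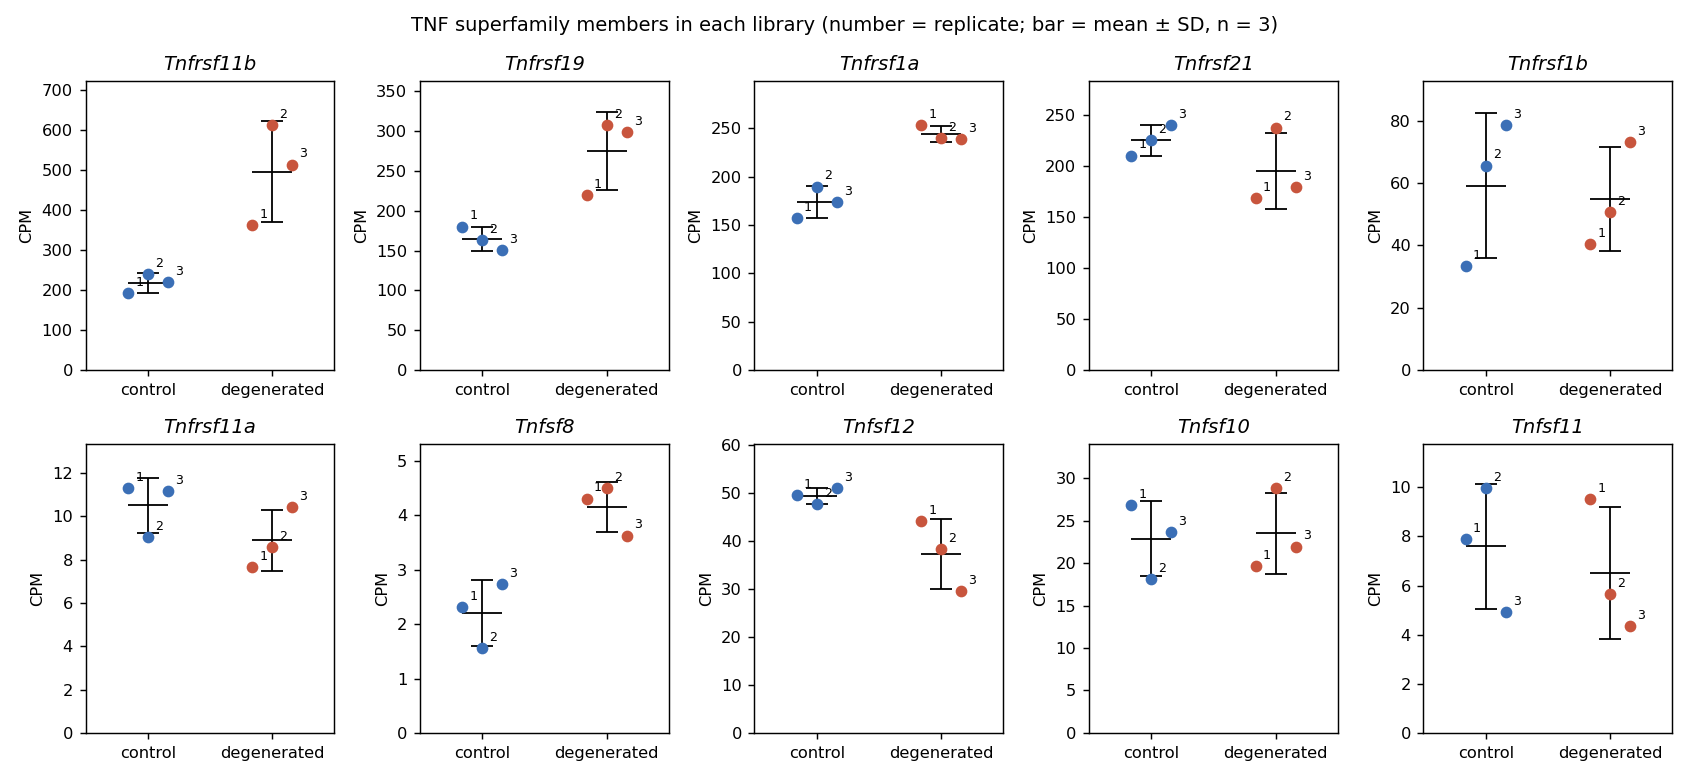
Level in CPM (vertical axes, each starting at 0) of 10 members in the 3 control and 3 degenerated libraries, with points numbered by replicate and bars for the mean ± SD (n = 3). The degenerated points of Tnfrsf11b, Tnfrsf19, Tnfrsf1a and Tnfsf8 lie above all control points, those of Tnfsf12 lie below, and in the other 5 genes the groups overlap.

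The comparison of degenerated with control libraries asked which members change in the degenerating ganglion. By edgeR's quasi-likelihood test, with a gene called at an unadjusted p under 0.01 and an absolute log2 fold change above 0.2, 3 of the 22 tested members were higher and 0 were lower. The 3 were the receptors Tnfrsf11b, Tnfrsf19 and Tnfrsf1a. They made up 13.6% of the tested members, against 2.01% of all tested genes called higher and 0.715% called lower. After Benjamini-Hochberg adjustment over all tested genes, 0 genes passed 0.05 in edgeR's test (1367, or 9.68%, had an unadjusted p under 0.05, and the smallest adjusted value was 0.0719) and 0 in limma-voom, while DESeq2 passed 381 genes, 2.7%, including these 3 receptors. Tnfsf8 was the other member with an unadjusted p under 0.05. The summed level of the 3 called receptors was 530, 594 and 544 CPM in control and 834, 1160 and 1051 CPM in degenerated libraries, whereas that of the other 19 tested members was 391, 467 and 487 CPM and 341, 437 and 445 CPM, with overlap. In such bulk RNA, a change in the number of cells of a type and a change in RNA per cell cannot be told apart.

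Groups did not overlap in 4 members that were higher, against 10.3% of all tested genes, and in 2 that were lower, against 7.37%. Together these were 27.3% of the tested members, where the background was 17.7%. The higher ones were the 3 called receptors and Tnfsf8, and the lower ones Tnfsf12 and Tnfrsf22. Overlap was read in CPM, and in TPM the groups overlapped for both Tnfsf12 and Tnfrsf22. Of the log2 fold changes, 10 were positive and 12 negative. Their median was -0.10 (-0.10 for ligands and -0.11 for receptors), beside -0.003 over all tested genes. The members' median was positive without control replicate 2 (0.010), control replicate 3 (0.037) or degenerated replicate 1 (0.044), and -0.21 without degenerated replicate 3. The 95% interval of 18 members included 0, and for 7 members it lay within a log2 fold change of 1 in either direction. For most of the members that were not called, the interval reached a doubling, a halving or both at this depth and spread. Without control replicate 3, degenerated replicate 2 or degenerated replicate 3, the number of members called higher was 1, which was Tnfrsf11b each time. Leaving out any other library gave 2.

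**Figure D2:**
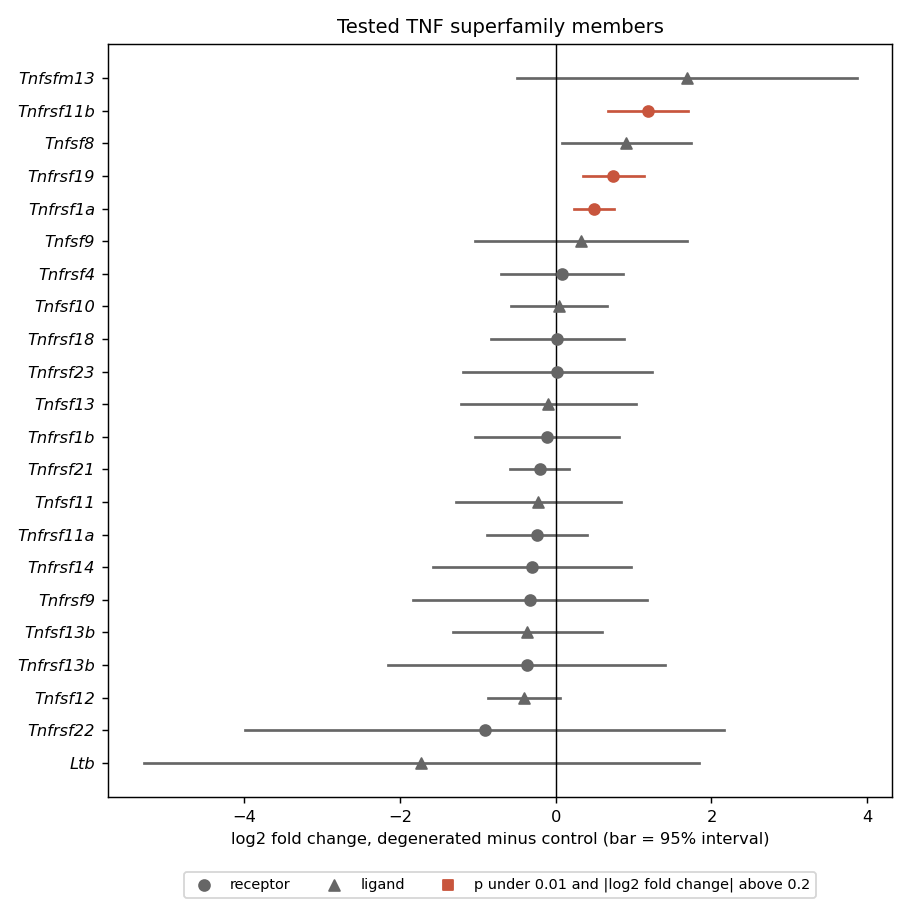
Log2 fold change (horizontal axis, degenerated minus control, edgeR) of the 22 tested members with its 95% interval, circles for receptors and triangles for ligands. The 3 called receptors, in red, have the narrowest intervals above 0, that of Tnfsf8 also lies above 0, and the intervals of the other 18 members cross 0.

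Among the receptors and ligands of the TNF and lymphotoxin branch, Tnfrsf1a stood out. It encodes TNF receptor 1, a broadly expressed death-domain receptor (ENSMUSG00000030341, chromosome 6 of GRCm38 from 125349362 to 125362484, 5 of 6 annotated transcripts listed). Its level was 157, 190 and 174 CPM in control replicates 1 to 3 and 253, 240 and 238 CPM in degenerated replicates 1 to 3. Every degenerated library lay above every control, and the degenerated ones were close together. The means were 173 ± 16.4 and 244 ± 8.07 CPM (SD, n = 3 each), a fold of 1.41 and a log2 fold change of 0.49 (SE 0.11, 95% interval 0.23 to 0.75). The edgeR test gave a p of 0.00359, and of 0.307 once adjusted over all tested genes. DESeq2 gave an adjusted p of 0.0287. The transcript Tnfrsf1a-201 held 98.6% to 99.3% of its counts. The unadjusted p in edgeR's test rose above 0.01 without control replicate 1 (log2 fold change 0.41, p 0.0106), control replicate 3 (0.48, p 0.0145) or degenerated replicates 1 (0.45, p 0.0169), 2 (0.49, p 0.0149) and 3 (0.51, p 0.0113).

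Tnfrsf1b encodes TNF receptor 2, which lacks a death domain and is typical of leukocytes and endothelium. Its level was 33.3, 65.6 and 78.5 CPM in control and 40.5, 50.7 and 73.1 CPM in degenerated libraries. The groups overlapped throughout, and within each of them replicate 1 was the lowest, as it was for the summed neutrophil markers. The log2 fold change was -0.11 (SE 0.38, interval -1.03 to 0.81), a range that contains the change of Tnfrsf1a. Tnf and Lta, which encode the ligands of both receptors, had no listed transcript, as had Tnfsf14 (LIGHT). The levels of these ligands are therefore not known. Tnfrsf14, the receptor of LIGHT on lymphocytes, was at 3.91, 10.97 and 7.72 CPM and at 4.17, 4.65 and 9.47 CPM, with overlap. For Ltb, which encodes lymphotoxin beta, all counts fell on a transcript annotated as a retained intron, with 0, 43 and 91 counts in control and 14, 3 and 19 in degenerated libraries. The 0 of control replicate 1 allows up to 0.198 CPM, and the groups overlapped.

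Tnfrsf11b had the largest increase among the called members. It encodes osteoprotegerin, a secreted decoy that binds RANK ligand and so restrains osteoclasts (ENSMUSG00000063727, chromosome 15 from 54250619 to 54278484, its single transcript listed). Its level was 193, 241 and 219 CPM in control replicates 1 to 3 and 362, 613 and 514 CPM in degenerated replicates 1 to 3. The lowest degenerated library stood well above the highest control. The means were 218 ± 23.9 and 496 ± 126 CPM (SD, n = 3 each), a fold of 2.28 and a log2 fold change of 1.19 (SE 0.21, 95% interval 0.67 to 1.70). The edgeR test gave a p of 0.00130, and of 0.240 once adjusted over all tested genes. DESeq2 gave an adjusted p of 0.00105. When single libraries were dropped, its log2 fold change was between 1.00 and 1.36 and the unadjusted p of edgeR's test between 0.000264 and 0.00785, so Tnfrsf11b was called every time.

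For the partners of osteoprotegerin no change was called. Tnfsf11, which encodes RANK ligand, was at 7.88, 9.98 and 4.91 CPM in control and 9.51, 5.63 and 4.34 CPM in degenerated libraries, and Tnfrsf11a, which encodes its receptor RANK, at 11.3, 9.06 and 11.2 CPM and at 7.66, 8.59 and 10.4 CPM. Both pairs of groups overlapped, with log2 fold changes of -0.22 (interval -1.28 to 0.83) and -0.24 (interval -0.88 to 0.40). Per length, Tnfrsf11b exceeded Tnfsf11 by 19.5, 19.2 and 35.4 times in control and by 30.2, 86.3 and 94.0 times in degenerated libraries. The groups overlapped in this ratio, since degenerated replicate 1 lay below control replicate 3.

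Bone markers were read beside these genes. The 5 tested of 8 osteoblast and osteocyte markers summed to 630 to 970 CPM in control and 303 to 517 CPM in degenerated libraries, without overlap, and Bglap, which encodes osteocalcin, was called lower (178, 419 and 285 CPM against 86.9, 71.2 and 145 CPM, log2 fold change -1.54, edgeR p 0.00850 and adjusted p 0.359). Osteoclast markers, 5 of 7 with a listed transcript, summed to 62.8 to 229 CPM and 7.82 to 52.2 CPM. Acp5, which encodes the osteoclast phosphatase TRAP, was at 192, 40.3 and 60.9 CPM in control and at 28.9, 0.563 and 3.16 CPM in degenerated libraries. The part of the bone content of a library in the level of Tnfrsf11b, Tnfsf11 or Tnfrsf11a was not tested.

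Tnfrsf19 encodes TROY, an orphan receptor of the developing and glial nervous system that can act as a co-receptor of the Nogo receptor (ENSMUSG00000060548, chromosome 14 from 60963875 to 61046490, 2 of 5 transcripts listed). Its level was 180, 163 and 151 CPM in control replicates 1 to 3 and 219, 307 and 299 CPM in degenerated replicates 1 to 3. All degenerated libraries were above all controls, degenerated replicate 1 by the smallest margin. The means were 165 ± 14.6 and 275 ± 48.6 CPM (SD, n = 3 each), a fold of 1.67 and a log2 fold change of 0.74 (SE 0.16, 95% interval 0.35 to 1.13). The edgeR test gave a p of 0.00350, and of 0.307 once adjusted over all tested genes. DESeq2 gave an adjusted p of 0.0296. With edgeR the unadjusted p rose above 0.01 without control replicate 2 (log2 fold change 0.73, p 0.0139), control replicate 3 (0.67, p 0.0165), degenerated replicate 2 (0.65, p 0.0159) or degenerated replicate 3 (0.68, p 0.0146).

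The gene has alternative first exons, and its listed transcripts differed in how they followed the sum. Tnfrsf19-201 begins at position 61046469 and Tnfrsf19-202 at 61037950, 8519 bases apart, and both carry the same coding exons of 1248 bases. Tnfrsf19-201 was at 163, 152 and 113 CPM in control and 189, 96.9 and 182 CPM in degenerated libraries, and Tnfrsf19-202 at 17.3, 10.9 and 37.5 CPM and at 29.8, 210 and 117 CPM. Degenerated replicates 2 and 3 thus had by far the most of Tnfrsf19-202, while degenerated replicate 1 lay below control replicate 3, and the groups overlapped for each transcript. Tnfrsf19-202 made up 9.61%, 6.68% and 24.9% of the counts of the gene in control and 13.6%, 68.4% and 39.2% in degenerated libraries. How reads shared by both transcripts were divided between them is not stated, so the split is less certain than the sum.

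**Figure D3:**
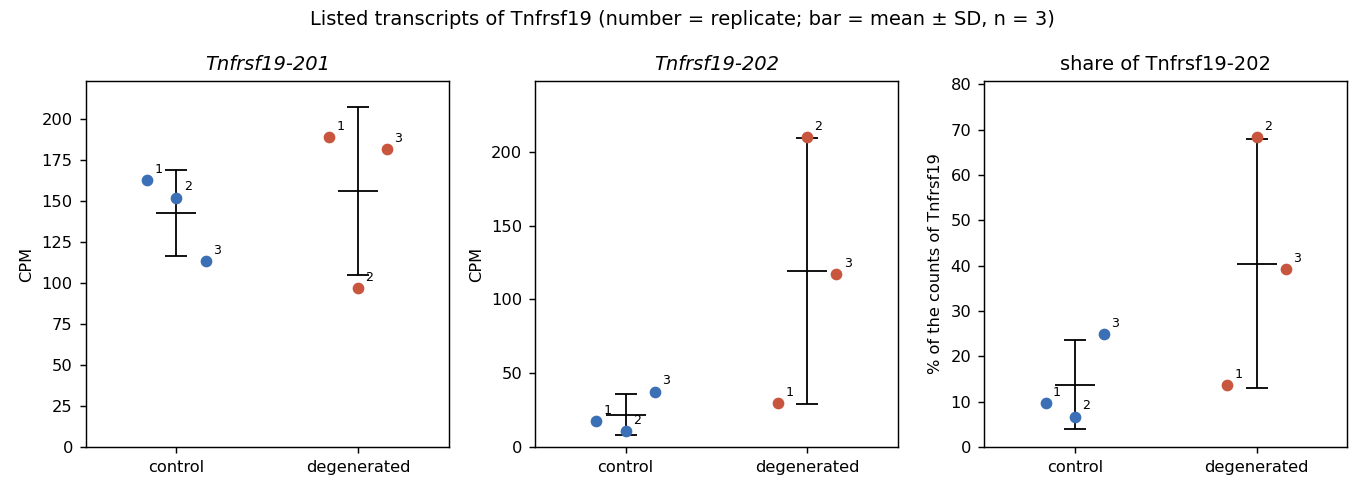
Level in CPM of the listed transcripts Tnfrsf19-201 and Tnfrsf19-202, and the share of Tnfrsf19-202 in the counts of the gene in percent, in each library, numbered by replicate, with bars for the mean ± SD (n = 3). Degenerated replicates 2 and 3 stand apart at 210 and 117 CPM of Tnfrsf19-202, and degenerated replicate 1, at 29.8 CPM, lies among the controls.

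The sequences before both starts of Tnfrsf19 are shown because each precedes the first exon of a listed transcript. They are the 250 bases upstream of the RefSeq starts (GRCm38.p6, minus strand, 5′ to 3′), which lie 386 bases upstream of the annotated first base of Tnfrsf19-201 and 37 bases upstream of that of Tnfrsf19-202. The windows are chr14:61046856-61047105, outside the annotated gene, and chr14:61037988-61038237, in an intron of Tnfrsf19-201. Capitals mark matches to any of 5 motifs searched on both strands, namely the κB motif (GGG, any 2 bases, then TTTCC), the AP-1 motif TGANTCA, the STAT motif TTCNNNGAA, the GC box GGGCGG and the TATA motif TATAAA.
Tnfrsf19-201 start: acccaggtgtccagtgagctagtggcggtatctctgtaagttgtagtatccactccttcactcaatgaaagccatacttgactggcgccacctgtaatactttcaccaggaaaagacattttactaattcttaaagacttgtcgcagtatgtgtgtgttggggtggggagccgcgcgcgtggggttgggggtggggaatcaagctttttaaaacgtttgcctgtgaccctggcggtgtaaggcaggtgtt
Tnfrsf19-202 start: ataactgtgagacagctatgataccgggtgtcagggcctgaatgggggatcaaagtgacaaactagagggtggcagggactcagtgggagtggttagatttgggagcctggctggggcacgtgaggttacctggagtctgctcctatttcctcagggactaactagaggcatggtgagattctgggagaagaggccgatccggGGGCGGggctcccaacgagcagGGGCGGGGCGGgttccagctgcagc
The window of Tnfrsf19-201 (50% G and C) held no match. That of Tnfrsf19-202 (59.2%) held 3 GC boxes, of which the last 2 share 1 base. A GC box was present in 32.7% of 32851 RefSeq windows of the same length, whose median G and C content was 52.4%. The first exon of Gm41168, an RNA gene on the opposite strand, covers 120 bases of this window. The window of Tnfrsf1a on chromosome 6, which is not printed since 36 of its bases belong to an exon of Tnfrsf1a-203, held 1 STAT match, within that exon, and no κB match, motifs found in 7.02% and 1.41% of windows. The AP-1 and TATA motifs, present in 6.75% and 12.4% of windows, were in none of these 3 windows. The absence of a match says only that these letters are not in the window.

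Tnfrsf21, which encodes the neuronal death receptor DR6, was the most abundant member that was not called, at 211, 225 and 240 CPM in control and 169, 238 and 180 CPM in degenerated libraries. Degenerated replicate 2 lay among the controls and the others below them, for a log2 fold change of -0.20 (SE 0.16, interval -0.59 to 0.18). Tnfsf10, which encodes TRAIL, an inducer of apoptosis, was at 26.8, 18.1 and 23.7 CPM and at 19.7, 28.9 and 21.9 CPM. The groups overlapped and the log2 fold change was 0.04 (interval -0.58 to 0.66), an interval that does not reach a doubling in either direction. Tnfrsf10b, which encodes the mouse death receptor for TRAIL, had no listed transcript, and neither had Tnfsf15 (TL1A) or the decoy receptor gene Tnfrsf26. Tnfrsf25, the receptor of TL1A, had 4 counts in control replicate 3 and 0 in the other libraries.

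The decoy TRAIL receptor genes Tnfrsf22 and Tnfrsf23 lie next to each other on chromosome 7. Tnfrsf22 had 80, 93 and 89 counts in control and 0, 74 and 52 counts in degenerated libraries. All degenerated libraries were lower in CPM, but by far the lowest was replicate 1, whose 0 allows up to 0.202 CPM. Degenerated replicate 2, at 5.21 CPM, was only just below control replicate 1, at 5.30 CPM. In TPM, degenerated replicate 2, at 2.78, was above all controls (2.49, 2.71 and 2.45). The log2 fold change of -0.91 had an interval of -3.99 to 2.17. It was -0.34 without degenerated replicate 1, -1.51 without degenerated replicate 2 and -2.79 by limma-voom. Tnfrsf23 had a log2 fold change of 0.02 (interval -1.19 to 1.23).

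Tnfsf12 encodes TWEAK, a ligand that acts on endothelial, muscle and glial cells, and was at 49.5, 47.7 and 51.0 CPM in control and 44.1, 38.2 and 29.6 CPM in degenerated libraries. Controls were close together and every degenerated library was below them, yet the test was not passed, with a log2 fold change of -0.41 (SE 0.19, interval -0.87 to 0.05), a p of 0.0747 in edgeR's test and an adjusted p of 0.565. Tnfsf13, which encodes the B cell ligand APRIL, follows it on chromosome 11, and Tnfsfm13 is a readthrough gene over both, so that 48.3% of the exon bases of Tnfsf12 and 60.0% of those of Tnfsf13 are also exon bases of Tnfsfm13 and the assignment of their reads is uncertain. Tnfsfm13 was at 8.27, 7.004 and 7.21 CPM in control and 6.16, 8.59 and 57.8 CPM in degenerated libraries. Degenerated replicate 3 alone was high, with 732 counts of Tnfsfm13-202 against 60 to 74 in the other libraries, and without it the log2 fold change went from 1.69 (SE 0.89) to -0.03. The sum over the 3 genes was 64.1, 61.3 and 61.8 CPM in control and 52.9, 52.5 and 94.3 CPM in degenerated libraries, with degenerated replicate 3 highest here too.

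High levels of the B cell receptors lay in few of the libraries. Tnfrsf13b encodes TACI, a receptor of BAFF and APRIL on B cells, and was at 4.57, 23.2 and 10.3 CPM in control and 6.36, 5.56 and 17.4 CPM in degenerated libraries. Control replicate 2 and degenerated replicate 3 were highest, for a log2 fold change of -0.37 that was 0.40 without control replicate 2. The same libraries had the largest sums of B and plasma cell markers, 5 of 7 tested (12.0, 359 and 90.9 CPM in control and 41.9, 43.9 and 208 CPM in degenerated libraries). Tnfrsf13c, which encodes the BAFF receptor, had 141 counts in control replicate 2 and 3 to 7 counts in each other library. It was under the filter of the main test, and at a mean count of 10 as the filter its log2 fold change was -3.05 (p 0.112 in edgeR's test). Tnfrsf14 was also highest in control replicate 2 and degenerated replicate 3, and the part of marrow or blood cells in these levels was not tested. Tnfsf13b, which encodes BAFF, had a log2 fold change of -0.36 (interval -1.31 to 0.59) and Tnfsf13 of -0.10 (interval -1.22 to 1.03). Tnfrsf17 (BCMA) had no listed transcript.

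**Figure D4:**
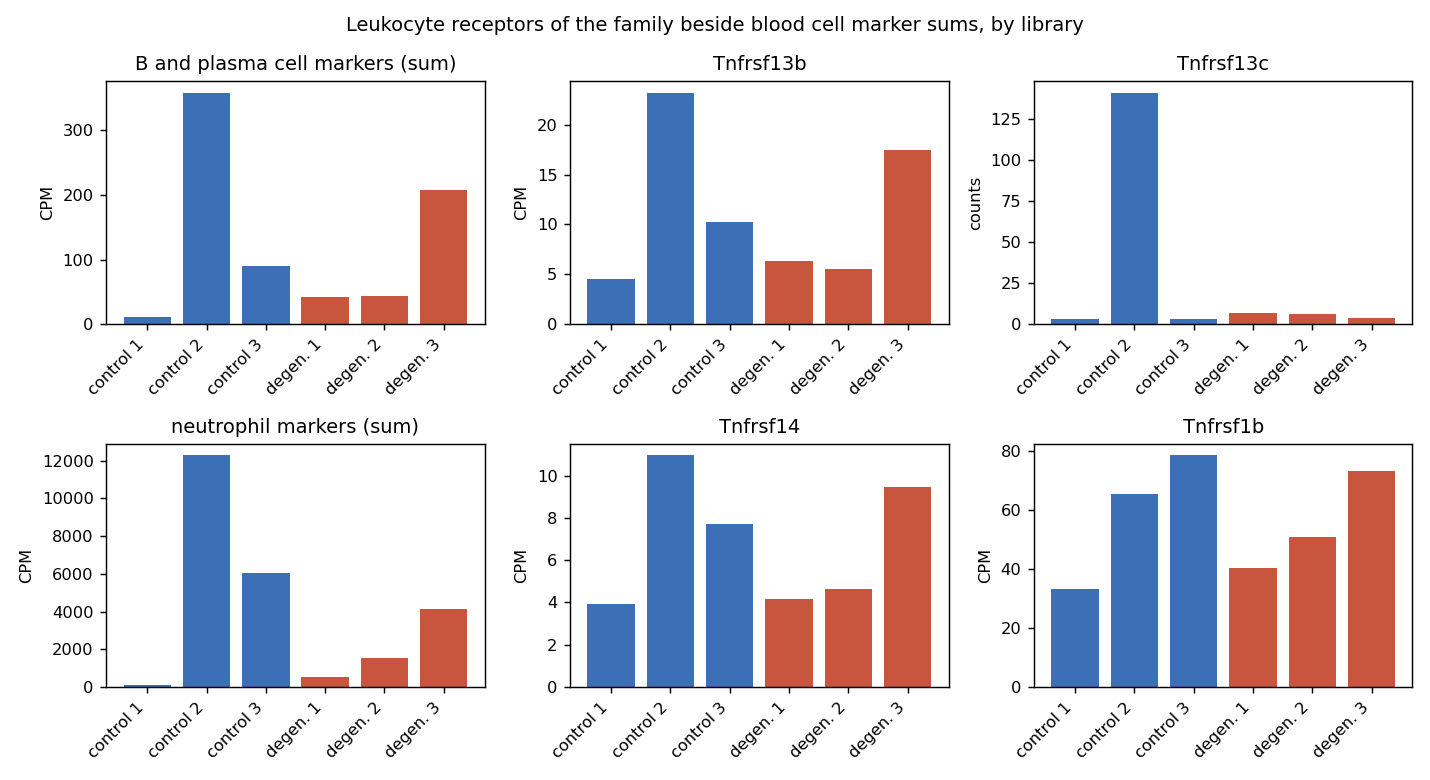
Summed CPM of B and plasma cell markers and of neutrophil markers beside the CPM of Tnfrsf13b, Tnfrsf14 and Tnfrsf1b and the counts of Tnfrsf13c, with a bar for each control and degenerated (degen.) library and axes starting at 0. Control replicate 2 has the tallest bar for both marker sums, Tnfrsf13b, Tnfrsf13c and Tnfrsf14, whereas control replicate 3 is highest for Tnfrsf1b.

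Listed members that costimulate T cells ranged in mean level over all libraries from 0.154 TPM (Tnfsf4) to 13.2 TPM (Tnfrsf18). Tnfsf8, which encodes CD30 ligand, had 35, 22 and 43 counts in control and 63, 64 and 46 counts in degenerated libraries, or 2.32, 1.56 and 2.74 CPM and 4.31, 4.51 and 3.63 CPM. The groups did not overlap, with a log2 fold change of 0.91 (SE 0.34, interval 0.08 to 1.74), a p of 0.0365 in edgeR's test and an adjusted p of 0.480, which is outside the call. The summed level of 10 markers of T and natural killer cells overlapped between the groups, at 16.7 to 58.2 CPM in control and 26.6 to 51.5 CPM in degenerated libraries, although Cd3e, 1 of them, was at 1.85, 1.63 and 2.17 CPM in control and at 0, 0.845 and 0.868 CPM in degenerated libraries. Log2 fold changes were 0.08 (interval -0.71 to 0.86) for Tnfrsf4 (OX40), 0.02 (interval -0.84 to 0.88) for Tnfrsf18 (GITR), 0.33 (interval -1.03 to 1.68) for Tnfsf9 (4-1BB ligand) and -0.34 (interval -1.84 to 1.17) for its receptor Tnfrsf9. For Tnfrsf18, 27.2% of exon bases overlap Gm16008 on the opposite strand, and for Tnfsf9, 14.9% overlap Gm11110, and the kit does not mark strand. Tnfrsf8 (CD30) had 0, 17 and 10 counts in control and 2, 6 and 8 in degenerated libraries, Tnfsf4 (OX40 ligand) had 2, 0 and 10 and 0, 2 and 0, and Tnfsf18 (GITR ligand) had no listed transcript.

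Genes that work with the family were read from 4 lists. For comparison, 2.01% of all tested genes were called higher and 0.715% lower. In lists this short, few or no called genes cannot be set apart from these shares. Of 12 genes of the superfamily under other symbols, 5 were tested and 0 were called in either direction, with a median log2 fold change of -0.04. The smallest p belonged to Fasl (-0.63, p 0.432 in edgeR's test) and Eda (0.45, p 0.622). Of 26 receptor adaptors and proximal signalling genes, 25 were tested and 0 called, with a median of -0.02. Tab2, which encodes a TAK1-binding protein, had the smallest p (log2 fold change 1.00, p 0.112 in edgeR's test), followed by the deubiquitinase gene Cyld (-0.46, p 0.130). Of 12 genes for NF-κB subunits and their kinases, 9 were tested and 0 called, with a median of 0.09. Bcl3, which encodes a nuclear IκB protein, was at 9.53, 16.1 and 16.2 CPM in control and 23.1, 24.6 and 25.0 CPM in degenerated libraries (log2 fold change 0.80, SE 0.27, p 0.0255 in edgeR's test). Chuk, which encodes IKKα, had a log2 fold change of 0.19 (p 0.0963).

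Of 28 genes known to be induced by TNF, 20 were tested. Of these, 14 had a positive and 6 a negative log2 fold change, with a median of 0.24. Over all tested genes, 7016 were positive and 7102 negative, with a median of -0.003. Groups did not overlap in 3 genes of the list that were higher and in 1 that was lower, against 10.3% and 7.37% of all tested genes. The higher ones were Lif, Cxcl1 and Tnfaip6. The lower one was Mmp9, at 158, 414 and 178 CPM in control and 50.3, 48.7 and 142 CPM in degenerated libraries. Its log2 fold change was -1.64, with a p of 0.0316 in edgeR's test. In this list the call was met by 1 gene, which was higher, Lif. It encodes leukemia inhibitory factor, a cytokine of the interleukin-6 family, and was at 2.65, 4.74 and 2.42 CPM in control and 9.10, 16.8 and 11.8 CPM in degenerated libraries. The groups did not overlap, with a log2 fold change of 1.94 (SE 0.42), a p of 0.00326 in edgeR's test and an adjusted p of 0.307. Without control replicate 1, control replicate 3 or degenerated replicate 2, no gene of the 4 lists was called higher, and without degenerated replicate 3 the numbers were 3 higher and 1 lower. Macrophages also express many of these genes. Their markers, 8 of 13 with a listed transcript, had sums that overlapped (913 to 2782 CPM in control and 1707 to 3099 CPM in degenerated libraries). Of these, C1qb and C1qc were called higher, and Aif1, which was under the filter, was at 15.1, 0.0707 and 16.2 CPM in control and at 0.137, 0 and 0 CPM in degenerated libraries. The part of macrophages in the levels of Lif and the called receptors was not tested.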

How the data were processed

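Cochlear modiolus RNA was sequenced in 6 libraries, grouped by the sample labels. The authors used Hisat2 for alignment and StringTie for expression and deposited raw counts per Ensembl transcript, whole numbers without normalization. The submitters' processing notes also name Bowtie 0.12.2 and the builds mm8 and mm10. For the annotation and the counting step, the sources used here give no name. The table lists 65535 transcripts, of which 65272 (99.6%) matched GENCODE M21 (GRCm38), 46.0% of its transcripts. The others, with 0.125% of counts, were left out. The table includes transcripts with 0 counts in every library, such as Tnfrsf9-203. That a transcript is not listed therefore does not show that its RNA was absent. Counts of listed transcripts were summed per gene, although the design assumed counts per gene. Of the tested members, 8 had every transcript listed and 14 a part, and a change in transcript use can alter a partly listed gene. Ltb, Tnfrsf14, Tnfsf13 and Tnfsfm13 had no listed principal transcript.

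Differential expression between the groups was fitted to all 6 libraries, without covariates, by the robust quasi-likelihood F test of edgeR 4.0.16 (R 4.3.3) after filterByExpr and TMM normalization. The common biological coefficient of variation was 0.488. CPM are normalized by TMM. TPM were computed from counts and GENCODE transcript lengths. The 3 against 3 design cannot give an exact permutation p under 0.1. Alternatives were DESeq2 1.42.0, limma-voom (limma 3.58.1), RLE normalization, no filter, a filter at a mean count of 10, the replicate number as a block, genes with every transcript listed, and each library left out. The fit was also run on simulated data. The planted changes were larger than those of the called members, so the run does not show how often changes of their size are found. Where a library had a count of 0, the upper limit given corresponds to 3 counts and covers counting error only. Levels in all libraries are given for members with an unadjusted p under 0.05, the 3 ligands and 5 receptors with the highest TPM, and the RANK and TNF axes, and others were added after their values were seen. The members and lists were chosen with earlier results of these data known. Promoters were taken from RefSeq for 27 members. For 1 gene with such a symbol, results are not reported here.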

Additional observations from a re-analysis of the deposited data

How the results depend on the processing

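The 3 called receptors were called under DESeq2, limma-voom, RLE normalization and both other filters, and 0 members were called lower under any alternative run. Members called higher numbered 1 (Tnfrsf11b) with the replicate block and 1 of the 8 members tested among genes with every transcript listed, and 1 to 2 with a library left out. Pairing was checked on log2 CPM after each gene's mean within its group was subtracted. Same-numbered control and degenerated libraries then correlated at 0.16, -0.0905 and 0.0674. Not every library correlated best with its own number, so the numbers were not taken to pair them. Genes called higher numbered 284, or 479 by DESeq2, 160 with the block, 82 with every transcript listed and 144 to 339 with a library left out, and genes called lower 101, or 306, 58, 53 and 76 to 158. Pathway genes called higher numbered 3 and called lower 1 by DESeq2, and 0 to 3 and 0 to 1 with a library left out. The median log2 fold change of all genes was -0.017 by DESeq2 and with RLE normalization, 0.010 without a filter and -0.032 to 0.011 with a library left out. With a library left out, 13 members that were not called changed sign: Tnfrsf13b (-1.09 to 0.40), Tnfsfm13 (-0.025 to 2.14), Tnfsf11 (-0.62 to 0.020), Tnfrsf1b (-0.40 to 0.14), Tnfrsf9 (-0.96 to 0.091), Tnfrsf4 (-0.11 to 0.16), Tnfsf13b (-0.63 to 0.00030), Tnfsf9 (-0.33 to 0.66), Tnfrsf23 (-0.32 to 0.43), Tnfsf10 (-0.14 to 0.16), Tnfrsf18 (-0.28 to 0.18, and -0.0018 with the block), Tnfrsf14 (-0.77 to 0.065) and Tnfsf13 (-0.38 to 0.19). With the block, Tnfrsf19 and Tnfrsf1a had log2 fold changes of 0.73 and 0.50, with an unadjusted p of 0.0164 and 0.0151 in edgeR's test. The cause of these shifts was not tested.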
